A study of Mus musculus with 12 samples.

Results

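The genes described here encode the enzymes and carriers with which the liver turns amino acids into energy, glucose and urea. They were chosen by name as 49 members in 9 roles: the urea cycle, glutamate and transaminases, tryptophan, tyrosine, serine and histidine, branched chain amino acids and propionate, lysine and proline, methionine with choline and 1-carbon units, and glyoxylate with cysteine. Of the 49 members, 47 had a probe set that the platform annotation gives to that gene alone, out of 12393 genes and 22626 probe sets tested. Ass1, the enzyme that makes argininosuccinate, is listed only on a probe set shared with Gm5424, and Sdsl, a serine dehydratase-like gene, is not listed, so both are named without a value. Where a gene had several probe sets, the one with the highest mean log2 signal over all arrays was used, and for members the others served as a check.

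Liver RNA of 12 male mice aged 6 weeks was hybridised to 12 one-colour arrays, 3 for each of 4 groups. All mice carried a human alpha1-antitrypsin transgene that is inducible and active in hepatocytes only, the wild-type form in M mice and the mutant Z form in Z mice. M off and Z off mice (M1 and Z1 in the labels) drank water with doxycycline at 40 µg/mL from conception on, which kept the transgene silent, and M on and Z on mice (M4 and Z4) received none and expressed it. The labels give no strain or founder line, and they call the arrays of a group biological replicates. Expression cannot be told apart from the absence of doxycycline, nor the form from the transgenic line, and the human transgene itself is not among the named probe sets. In whole liver, fewer cells of a type and less RNA per cell cannot be told apart.

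Hepatocytes near the portal vein carry out much of the liver's amino acid breakdown. Transaminases and glutamate dehydrogenase release the amino nitrogen, the urea cycle turns ammonia and aspartate nitrogen into urea, and separate pathways break down each carbon skeleton. Many of these genes respond to glucagon, glucocorticoids and dietary protein. The Z form of alpha1-antitrypsin is retained in the endoplasmic reticulum of the same cells.

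The values are linear signals scaled array by array. Markers of hepatocytes were bright on every array, with a summed signal of 6 measured markers from 74504.8 to 117154. The 3 measured erythroid markers summed to 1153.2 to 1499.9 on the Z off arrays and to at most 335 in the other groups, a sum that is almost all Alas2, which read 1118.8 to 1456.1 in Z off and at most 306.6 elsewhere. The other erythroid markers, Slc4a1 and Hba-a1, were dim, with means of 20.9 and 18.2 in Z off, and did not separate that group. On the Z on arrays a control signal for 18S RNA was at least 914.2, and in the other groups at most 767.5, with 93.9 to 373 in Z off and 568.2 to 709.8 in M off. The beta-actin 3′ to 5′ ratio, a sign of RNA quality, was 2.18 to 2.53 in Z off, below the 2.72 to 3.89 of M off and the 3.09 to 4.38 of M on, and overlapped the 2.44 to 5.16 of Z on. The same ratio for Gapdh did not separate Z off. It was 1.09 to 1.49 there, 1.48 to 1.54 in M off, 1.46 to 1.60 in M on and 1.23 to 1.92 in Z on. Stellate cell markers summed to less in both expressing groups, to 1135.5 to 1439.6 in Z on against 1810.5 to 2059.4 in Z off. In M on the sum was 1220.3 to 1792.4, against 1953.5 to 2107.5 in M off. The brighter of these markers, Col3a1, Dcn, Reln and Col1a2, had lower means in both expressing groups. The dimmer ones were mixed. Des had a mean of 28.1 in Z on against 25.6 in Z off, but was lower in M on than in M off. Lrat had 13.5 in M on against 9.2 in M off, and was nearly level in Z mice. Col1a1 overlapped in both lines. The sums of M on also lay below those of M off for sinusoidal endothelial markers (588.2 to 651.1 against 688.6 to 740.6) and skeletal muscle markers (69 to 92.8 against 96.3 to 452.2). The part of these differences in the results below was not tested.

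Of the 47 members, 1 gene, Mccc1 of leucine breakdown, passed the test in any comparison. A call here is an adjusted p under 0.05 in limma, with Benjamini-Hochberg adjustment over all 22626 probe sets. Between Z on and Z off 0 of 47 members were called, against 0.0133% of all probe sets, and 1 member had an unadjusted p under 0.05, against 6.29%. Between M on and M off 0 members were called, as were 0% of all probe sets, and 3 had an unadjusted p under 0.05, against 5.18%. No member was called for the difference between these responses, where 0% of probe sets were called and 3 members had an unadjusted p under 0.05, against 5.18%. Between Z on and M on 0 members were called, against 0.00884%, and 1 had an unadjusted p under 0.05, against 6.85%. Between Z off and M off 1 member was called, against 0.0707%, and 6 had an unadjusted p under 0.05, against 7.73%. Averaged over both lines, on against off gave 0 calls, against 0.00884%, and 1 unadjusted p under 0.05, against 5.84%. Averaged over both states, the Z line against the M line gave 1 call, against 0.0884%, and 4 unadjusted p under 0.05, against 9.09%.

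Direction was mixed within every comparison. In Z on against Z off 25 members read higher and 22 lower, with a median log2 difference of 0.01, beside -0.03 over all probe sets, of which 47% read higher. In M on against M off 16 read higher and 31 lower, with a median of -0.10 beside -0.01, and 48.9% of all probe sets read higher. Of the 47 members, 22 differed in the same direction in these responses, which share no array, as did 49.8% of all probe sets. For the difference of the responses 30 members lay above 0, beside 48.5% of all probe sets. Between Z on and M on 24 read higher, beside 50.3%, and between Z off and M off 15, beside 52.8%. On against off over both lines 17 read higher, beside 47.4%, and in the Z line against the M line 19, beside 52.1%.

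Arrays of the groups compared did not overlap for 5 members between Z on and Z off, against 11.8% of all probe sets, for 2 between M on and M off, against 10.5%, and for 4 between Z on and M on, against 12.1%. Between Z off and M off they did not overlap for 13 of 47 members, against 15.1%, the largest count of these comparisons. There the beta-actin ratio and the 18S control did not overlap either, while the Gapdh ratio did. Alas2 also separated these groups, with 1118.8 to 1456.1 in Z off and 254.2 to 306.6 in M off. The part of Alas2 and of these controls was not tested. The 2 of the M mice were Dbt and Aass. The stellate, endothelial and muscle marker sums separate the same groups, and their part was not tested. In at least 1 of the lines, on and off did not overlap for 7 members and for 20.9% of all probe sets. Over both lines 0 members and 0.8% of all probe sets separated on from off. A p that misses the threshold does not show that levels were equal, so the intervals bound the differences. In Z on against Z off the 95% intervals of 44 members lay within 1 on the log2 scale, a 2-fold difference either way, in M on against M off and in Z on against M on those of 43, and in Z off against M off those of 38. For the difference of the responses the intervals of only 27 members lay within that bound.

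**Figure D1:**
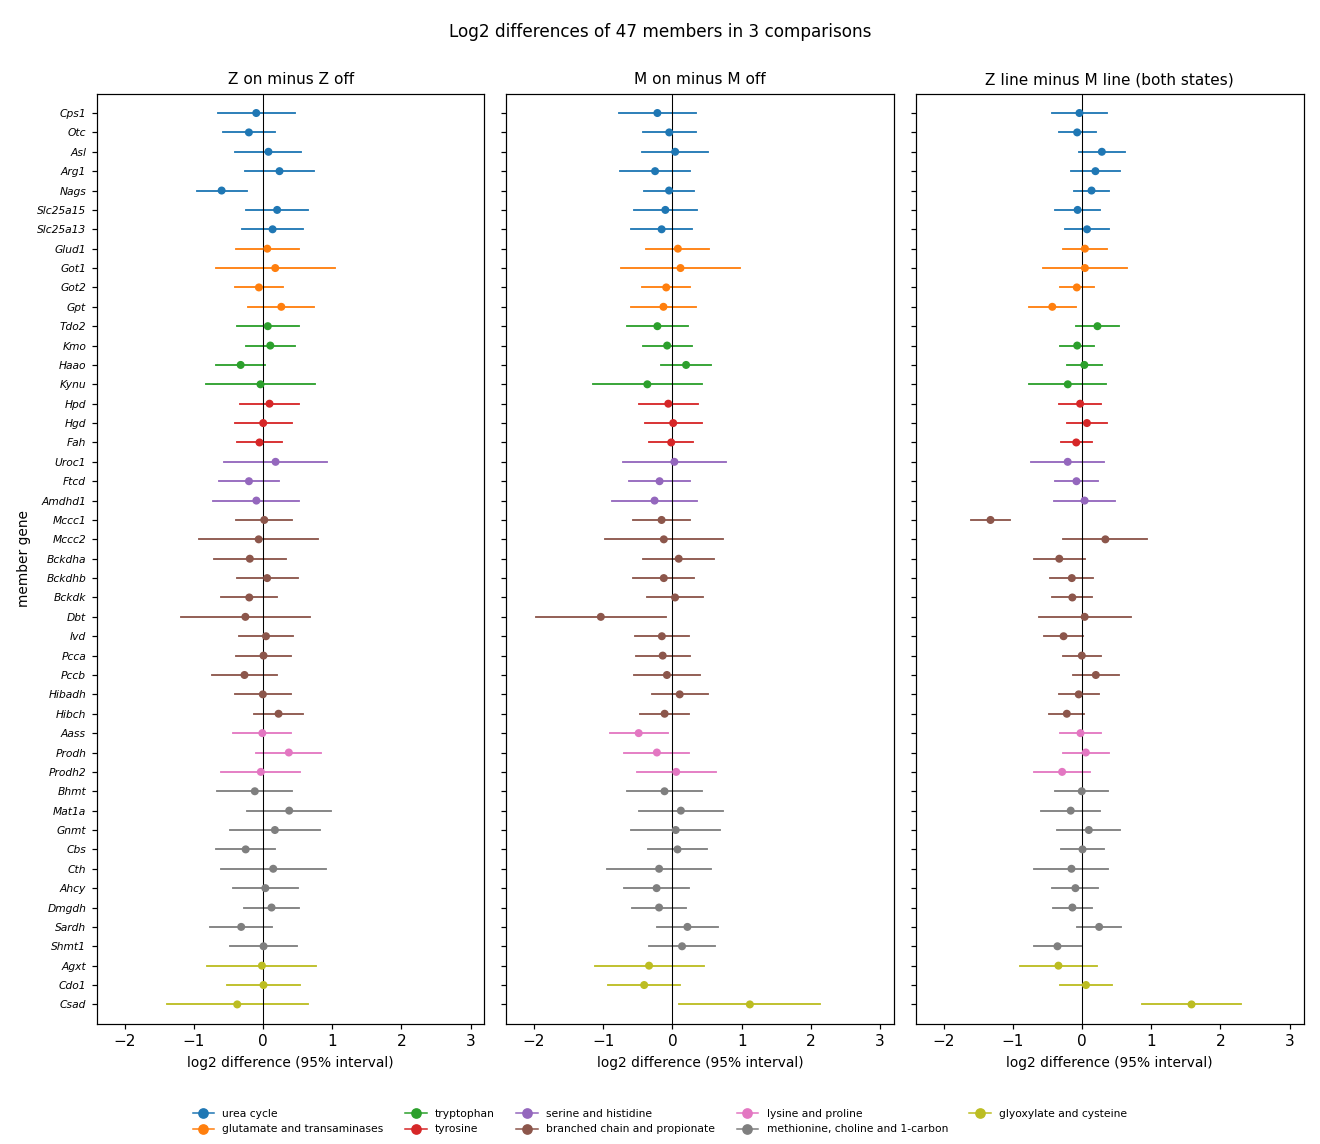
Log2 differences (points) with 95% intervals (lines) of the 47 members, coloured by role, for expression in Z mice (left), expression in M mice (middle) and the Z line minus the M line over both states (right). Most intervals cross 0; in the right panel Mccc1 lies at -1.32 and Csad at 1.58.

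The members' level also differed between the arrays of a group. Taken as the median deviation of the 47 members from their own mean of 12 arrays, the array numbered 1 was the highest in each of the 4 groups, with 0.12 in M off, 0.13 in M on, 0.01 in Z off and 0.09 in Z on (log2). Glud1, Got2, Uroc1 and Gnmt each read highest on the array numbered 1 in all 4 groups, 4 of 47 members or 8.51%, beside 2.29% of all probe sets and 18.1% of the brightest 1%. The members varied within groups by a median SD of 0.21 on the log2 scale, beside 0.28 for all probe sets above the median level, where 46 of the 47 members lie.

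**Figure D2:**
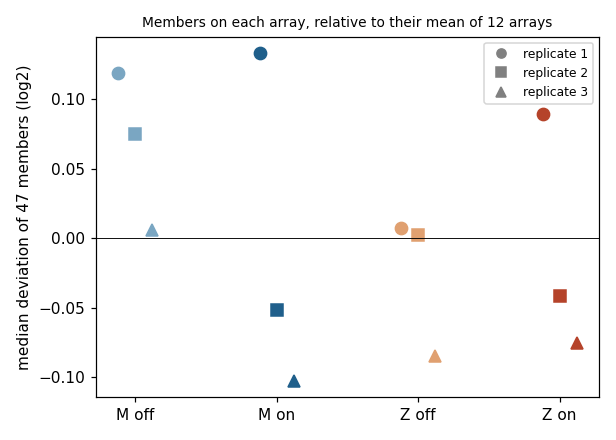
Median deviation of the 47 members from their own mean over 12 arrays (log2, vertical axis), 1 point per array, by group (horizontal axis) and replicate number (symbol). The circles, replicate 1, lie highest in each group, and the groups overlap.

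In the urea cycle, 7 of 8 members were measured and none was called in any comparison. Cps1, which makes carbamoyl phosphate from ammonia in mitochondria, read 9678.2, 9031 and 7517.5 in M off, 10565.7, 5551.5 and 7115.9 in M on, 8139.2, 8569.2 and 7698 in Z off, and 9249.7, 6747.5 and 7029.7 in Z on. All 4 groups overlapped, and the M on arrays spanned the whole range of the gene. The log2 difference was -0.10 between Z on and Z off (95% interval -0.65 to 0.46) and -0.22 between M on and M off (-0.78 to 0.34). Single arrays set these sizes: without M on replicate 1 or 2 the second became -0.47 or -0.0038, and without Z on replicate 1 or 2 the first became -0.24 or -0.01.

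Otc, which joins carbamoyl phosphate to ornithine, had group means from 2134 ± 189 in Z on to 2462 ± 281 in Z off (mean ± SD, n = 3 each). Its log2 difference between Z on and Z off was -0.20 (interval -0.58 to 0.18). The other Otc probe sets did not share this sign, with 0.50 and 0.0011. Asl, which splits argininosuccinate, read 1605 ± 174 in M off, 1660 ± 302 in M on, 1924 ± 35.4 in Z off and 2067 ± 443 in Z on. Z off lay above M off without overlap, and the differences on expression were 0.08 in Z mice and 0.04 in M mice. Arg1, which releases urea from arginine, read 9728.6, 7529.7 and 8247 in Z on and 7592.3, 7891.1 and 6137.1 in Z off. The groups overlapped, with a log2 difference of 0.24 (interval -0.27 to 0.74), and in M mice it was -0.25 (-0.76 to 0.25). The carriers that move ornithine (Slc25a15) and exchange aspartate for glutamate (Slc25a13) across the mitochondrial membrane differed by 0.20 and 0.14 in Z mice and by -0.10 and -0.16 in M mice. The second Slc25a15 probe set was of opposite sign, with -0.21 in Z mice and 0.10 in M mice, and between Z off and M off it read 0.96 (adjusted p = 0.564) where the one used read -0.22.

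Nags makes N-acetylglutamate, the activator that Cps1 needs. Its Z off arrays read 513.8, 581.8 and 444 and its Z on arrays 318.3, 368.2 and 327.1. The M off arrays read 369.3, 385.2 and 396.1 and the M on arrays 381.2, 349.7 and 381.5. The Z off arrays were thus the high ones, above all 9 others, while the Z on arrays overlapped those of M on. The log2 difference between Z on and Z off was -0.60 (SE 0.16, interval -0.96 to -0.24), a ratio of 0.661, with an unadjusted p of 0.0042 in limma and an adjusted p = 0.644. Between M on and M off it was -0.05, and the difference of the responses was -0.55 (adjusted p = 0.933). Z off read above M off by 0.41 (adjusted p = 0.6). Nags was the only member with an unadjusted p under 0.05 between Z on and Z off and was not called; its arrays do not overlap there, as is so for 5 members and for 11.8% of all probe sets. Alas2 (high in Z off only) and the 18S control (high in Z on) also separated Z on from Z off. So did the stellate marker sum (high in Z off and in M off). Their part in the Nags values was not tested.

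**Figure D3:**
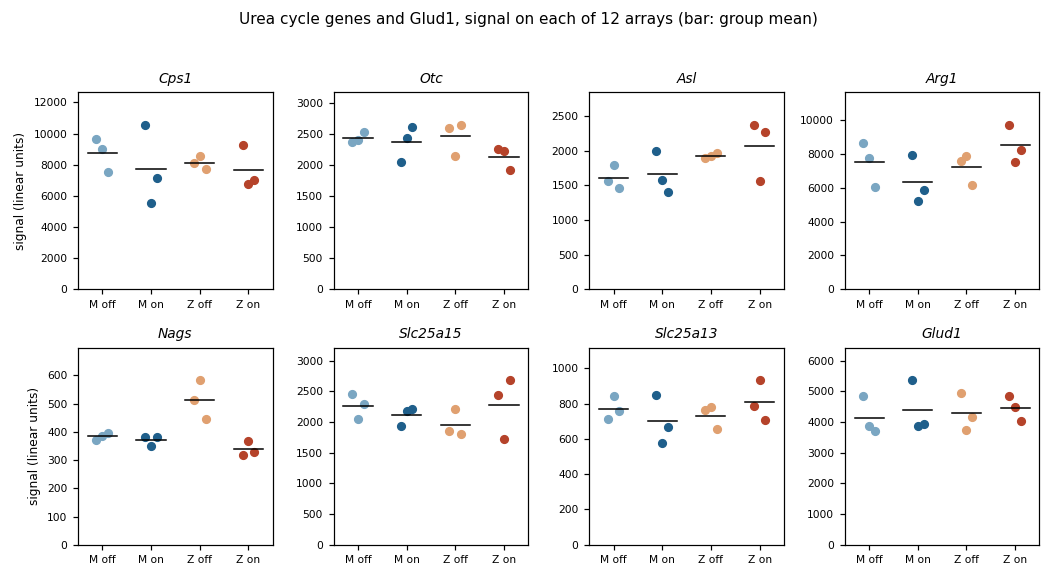
Signal (linear units, vertical axis from 0) of 7 urea cycle members and Glud1 on each of 12 arrays, 3 per group, with a bar at the group mean. Nags is highest on the 3 Z off arrays (444 to 581.8); Asl separates Z off from M off, and in the other 6 genes the groups overlap in each of the 4 pairs compared (on with off in each line, Z with M in each state).

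Glud1, the glutamate dehydrogenase that frees ammonia, read 4140 ± 618 in M off, 4389 ± 837 in M on, 4285 ± 608 in Z off and 4459 ± 423 in Z on. Its differences on expression were 0.06 in Z mice and 0.08 in M mice. The aspartate aminotransferases of cytosol (Got1) and mitochondria (Got2) differed by 0.18 and -0.06 in Z mice. A second, dimmer Got2 probe set differed by -0.37 there and was not called. Its Z on arrays (638.3 to 927.6) did not overlap those of Z off (940.5 to 1091.4). Got1 varied from 454.8 to 1206.9 in M on, and its interval in Z mice was -0.68 to 1.04.

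Gpt, alanine aminotransferase, read 1941.4, 1657.9 and 1648.6 in M off and 1079.8, 1345.4 and 992.2 in Z off. All Z off arrays lay below all M off arrays, by -0.63 on the log2 scale (SE 0.21, adjusted p = 0.546). In the expressing groups the arrays overlapped, with 2053.1, 1464.5 and 1345.5 in M on against 1353, 1516.2 and 1218.8 in Z on, a difference of -0.23.

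Among the tryptophan genes, Tdo2, which opens the indole ring, had means of 6055 ± 531 in Z off, 6419 ± 1217 in Z on, 5729 ± 457 in M off and 4955 ± 801 in M on. A second Tdo2 probe set differed by -0.61 between M on and M off (adjusted p = 0.89), where the brighter one differed by -0.22. Haao, which makes the precursor of quinolinate, had 2359.4, 2221.6 and 2375.9 in Z off mice against 1979.8, 1790.9 and 1796.9 in Z on mice. The Z groups did not overlap (log2 difference -0.32, adjusted p = 0.8), while M on and M off overlapped with a difference of 0.20. The Z off arrays also lay above those of M off (1694.3 to 2054.4) and overlapped M on (1983 to 2454.2). The Z on arrays lay within the range of M off and below M on. The difference of the responses was -0.52 (SE 0.23, adjusted p = 0.933). Kmo, kynurenine hydroxylase, differed by 0.11 in Z mice, and Kynu, kynureninase, was dim, from 20.8 to 46.3, with overlapping groups.

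The tyrosine genes differed little in any group. Fah, which cleaves fumarylacetoacetate at the end of the pathway, had group means of 4775 ± 245 in M off, 4711 ± 152 in M on, 4561 ± 320 in Z off and 4399 ± 121 in Z on. Its highest array was 1.19 times its lowest, the smallest such ratio among the members. The differences of Hpd, Hgd and Fah lay between -0.05 and 0.09 in Z mice and between -0.06 and 0.01 in M mice. Of the histidine genes, Uroc1 (urocanase), Amdhd1 and Ftcd, which passes histidine carbon to folate, differed by 0.18, -0.10 and -0.20 in Z mice and by 0.03, -0.26 and -0.19 in M mice.

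The branched chain and propionate genes held the one call. Mccc1 encodes the biotin-carrying subunit of methylcrotonyl-CoA carboxylase, a mitochondrial enzyme of leucine breakdown. It read 576.1, 524.9 and 486.7 in M off and 421.3, 533 and 472.5 in M on. In Z off it read 233.3, 188.6 and 178.4, and in Z on 221.4, 207.5 and 177.7. All 6 Z arrays lay below all 6 M arrays, from 177.7 to 233.3 against 421.3 to 576.1, with no overlap in either state. Over both states the log2 difference was -1.32 (SE 0.13, interval -1.61 to -1.03), so that M was 2.50-fold higher than Z (adjusted p = 0.00508). It ranked 7 by p among the 20 probe sets called. The arrays do not overlap in both states for 1 of 47 members and for 1.74% of all probe sets.

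The Mccc1 difference was -1.41 between Z off and M off (adjusted p = 0.0349) and -1.23 between Z on and M on (adjusted p = 0.091), and these values differed by 0.18 (interval -0.40 to 0.75, adjusted p = 0.963). The responses to expression were 0.02 in Z mice (interval -0.39 to 0.43) and -0.16 in M mice (-0.56 to 0.25). The call for the Z line against the M line remained without each of the 12 arrays in turn, with adjusted p-values in limma from 0.0118 to 0.0289. The call for Z off against M off was lost in each of these 12 omissions (0.0529 to 0.149). A single probe set measured the gene, and form, line and any probe sequence difference between the lines cannot be told apart. Mccc2, the partner subunit of the same carboxylase, read 82.6 ± 11.8 in M off, 82.3 ± 44.1 in M on, 102 ± 7.93 in Z off and 102 ± 37.5 in Z on. Its line difference was 0.34 (interval -0.27 to 0.94), of the opposite sign to that of Mccc1.

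The bases before the start sites of Mccc1 and Csad are shown because these members had the largest line differences. They are the reference sequence of RefSeq (GRCm38.p6), with no data on the alleles these mice carry. The 250 bases before the Mccc1 start, on the minus strand at chr3:36000679-36000928, are printed 5′ to 3′ with CCAAT (or its reverse complement ATTGG) in capitals.
Mccc1: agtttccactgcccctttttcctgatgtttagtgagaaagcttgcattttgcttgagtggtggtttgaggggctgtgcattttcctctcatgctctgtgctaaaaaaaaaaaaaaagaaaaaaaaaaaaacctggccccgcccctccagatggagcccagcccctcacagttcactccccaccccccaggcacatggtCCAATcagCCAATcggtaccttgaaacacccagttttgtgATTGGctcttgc
It held 3 such matches, which begin 52, 44 and 12 bases before the start. At least 1 match was found in 50% of the 42 windows of the 38 members in the table and in 33.8% of all 32851 windows of the same length. A second search, for TGACGT on either strand, the core of the cyclic AMP response element, is shown in capitals for the first of the 2 Csad start sites, on the minus strand at chr15:102205053-102205302.
Csad: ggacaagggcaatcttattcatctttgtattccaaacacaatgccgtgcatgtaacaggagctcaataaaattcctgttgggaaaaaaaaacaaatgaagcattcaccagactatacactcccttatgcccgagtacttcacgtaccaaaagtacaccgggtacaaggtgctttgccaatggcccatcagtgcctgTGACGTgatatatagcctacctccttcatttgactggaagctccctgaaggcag
The match begins 54 bases before the start. The window before the second Csad start site held no such match. TGACGT was found before Csad and Aass, in 4.76% of the members' windows and 6.47% of all. The E-box CACGTG was found in 9.52% and 6.02%. A match is a description of the letters only.

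Dbt, the core subunit of the branched chain ketoacid dehydrogenase, read 280.2, 321.5 and 268.3 in M off and 169.4, 74 and 224.1 in M on. The M groups did not overlap, and M on ranged from 74 to 224.1. The log2 difference was -1.03 (SE 0.42, adjusted p = 0.924), and without 1 array at a time it ranged from -1.37 to -0.57, the smallest size being without M on replicate 2. In Z mice the difference was -0.25 (interval -1.19 to 0.68). Bckdha, a subunit of the same complex, read 811 ± 87.7 in M on and 597 ± 160 in Z on, with overlapping arrays and a difference of -0.47 (adjusted p = 0.77). The kinase Bckdk that inhibits the complex differed by -0.20 in Z mice and 0.04 in M mice.

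Hibch, of valine breakdown, read 609.9, 568.5 and 589.1 in M off and 424.7, 469.3 and 457 in Z off, apart from each other by -0.39 on the log2 scale (SE 0.16, adjusted p = 0.62). In Z on it read 590.7, 492.1 and 500.5, above Z off and overlapping M on. A second, dim Hibch probe set (4.7 to 36) differed by -1.14 between Z off and M off. Ivd, of leucine breakdown, differed by -0.36 between Z off and M off on its brighter probe set and by 0.38 on the other, so its probe sets disagreed. The propionyl-CoA carboxylase subunits Pcca and Pccb differed by 0.01 and -0.27 in Z mice and by -0.14 and -0.08 in M mice. Bckdhb, a further subunit of the ketoacid dehydrogenase, and Hibadh of valine breakdown differed by 0.06 and -0.0019 in Z mice, with intervals of -0.38 to 0.50 and -0.41 to 0.40.

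Aass, the first enzyme of lysine breakdown, read 1124.9, 1167.6 and 1151 in M off and 708.2, 867.8 and 891.2 in M on. The M groups did not overlap (log2 difference -0.49, SE 0.19, adjusted p = 0.894), and the Z groups did, with a difference of -0.01. The Z off arrays (912.1 to 1036.5) lay below M off and above M on. The Z on arrays (770.1 to 1135.1) overlapped both M groups. The difference of the responses was 0.48 (interval -0.11 to 1.07). Prodh, proline dehydrogenase, had 560.8, 554 and 588.9 in Z off mice against 952.7, 596.7 and 699.7 in Z on mice, apart from each other. The difference was 0.37 (adjusted p = 0.838), and in M mice it was -0.23. The Z off arrays also lay below those of M off (650.6 to 708.7) and overlapped M on (477 to 681.3). The Z on arrays overlapped both M groups. Prodh2, which breaks down hydroxyproline, differed by -0.03 in Z mice (-0.60 to 0.54) and 0.05 in M mice.

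**Figure D4:**
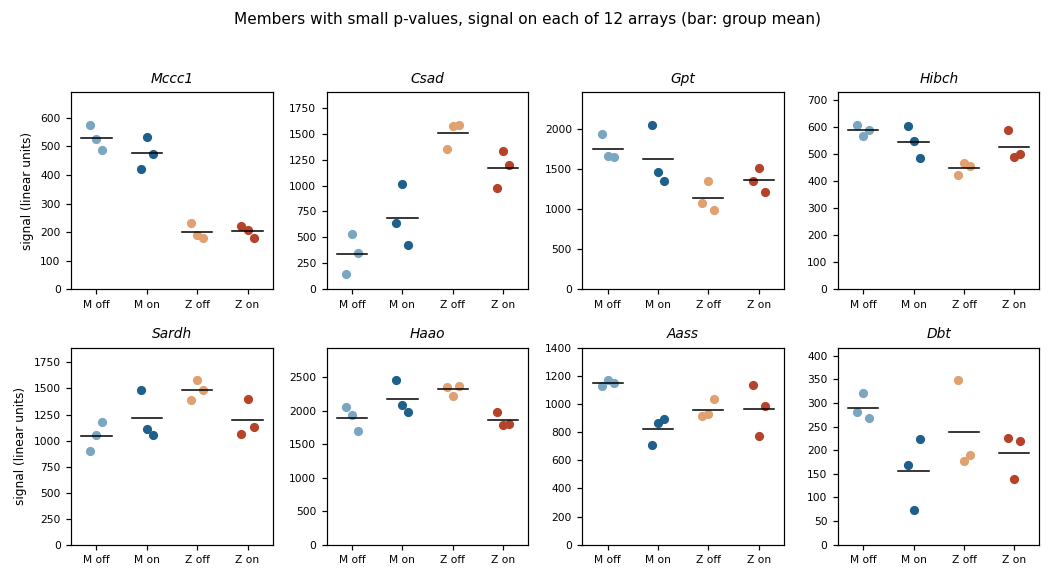
Signal (linear units, vertical axis from 0) of 8 members with small p-values on each of 12 arrays, 3 per group, with a bar at the group mean. All 6 Mccc1 values of Z mice lie at or below 233.3 and all of M mice at or above 421.3; Csad ranges from 144.3 in M off to 1586.9 in Z off.

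The genes of methionine, choline and 1-carbon metabolism gave no call. Bhmt, which returns the methyl group of betaine to homocysteine, read 11136 ± 1885 in M off, 10463 ± 3058 in M on, 11044 ± 918 in Z off and 10249 ± 1656 in Z on. Mat1a, which makes S-adenosylmethionine, differed by 0.38 in Z mice (interval -0.23 to 0.98), and Gnmt, which uses it up, by 0.17 (-0.47 to 0.82). Cbs and Cth, which turn homocysteine into cysteine, differed by -0.25 and 0.15. Ahcy, which splits S-adenosylhomocysteine, and Dmgdh, dimethylglycine dehydrogenase, differed by 0.03 and 0.12 in Z mice and by -0.23 and -0.19 in M mice.

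Sardh, sarcosine dehydrogenase, read 903.1, 1050.2 and 1179.3 in M off and 1387, 1577.2 and 1485.9 in Z off. The Z off values lay above all of M off (0.51 on the log2 scale, SE 0.20, adjusted p = 0.6), whereas Z on and M on overlapped with a difference of -0.02. The second Sardh probe set differed by 0.15 between Z off and M off. Shmt1, cytosolic serine hydroxymethyltransferase, had 4 probe sets that disagreed on Z on against Z off, with differences of 0.01, 0.03, -0.93 and 0.57. On the probe set with -0.93 the Z on arrays were the low ones, and its difference from M on was -1.24 (adjusted p = 0.314); on 3 of the 4 the Z line read lower than the M line, by 0.35, 0.58 and 0.58 in size, and on the other it read 0.20 higher.

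Csad, which decarboxylates cysteine sulfinate on the way to taurine, was the most variable member. It read 144.3, 530.4 and 350.2 in M off, 636.1, 1012.9 and 425.3 in M on, 1357.4, 1572 and 1586.9 in Z off, and 972.5, 1336.7 and 1202.2 in Z on. Every Z off array lay above every M off array, and Z on overlapped M on by 1 array, M on replicate 2. The log2 difference between Z off and M off was 2.33 (SE 0.46, interval 1.31 to 3.35), a 5.02-fold higher signal in Z off, with an unadjusted p of 0.0005 in limma and an adjusted p = 0.199. Without M off replicate 1, the lowest array, it was 1.80. Over both states the line difference was 1.58 (interval 0.86 to 2.30, adjusted p = 0.162).

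On expression the Csad differences were of opposite sign, 1.12 in M mice (adjusted p = 0.93) and -0.37 in Z mice (adjusted p = 0.928), and neither was called. The difference of these responses was -1.49 (interval -2.93 to -0.05, adjusted p = 0.933) and ranged from -1.90 to -0.96 without 1 array at a time. Cdo1, which makes the substrate of Csad from cysteine, read 4783 ± 714 in Z off and 5298 ± 660 in M off, a difference of -0.15 (-0.67 to 0.37). Agxt, which detoxifies glyoxylate, varied within each group, from 1530.5 to 3137.9 in Z on.

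**Figure D5:**
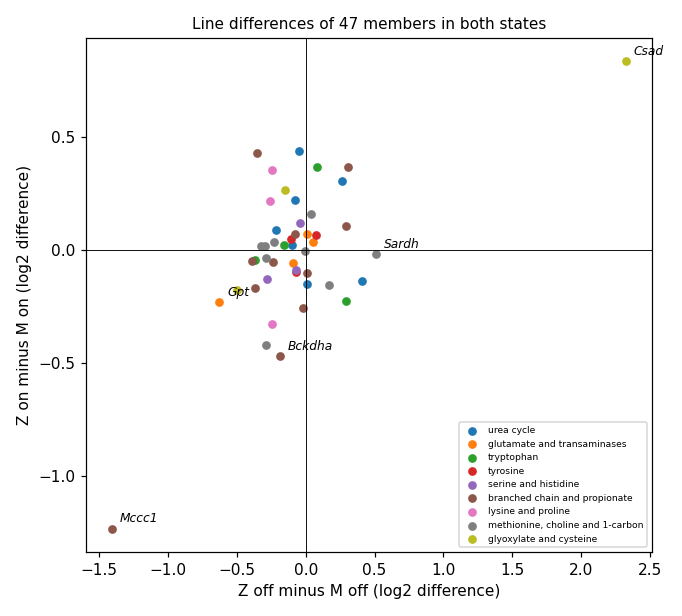
Log2 difference of Z off minus M off (horizontal) and of Z on minus M on (vertical) for the 47 members, coloured by role; the axes share no array. Mccc1 lies low on both (-1.41 and -1.23) and Csad high on both (2.33 and 0.84), while the other members lie between -0.63 and 0.51 on the horizontal axis.

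Of 43 further genes of amino acid breakdown and transport, 37 were measured and 0 were called in any of the 7 comparisons. In Z on against Z off 28 read higher and 9 lower, with a median of 0.10, and in M on against M off 15 and 22, with a median of -0.05. Over all probe sets 47% and 48.9% read higher in these comparisons. Slc7a2, a carrier of arginine and other cationic amino acids, had 86.1, 41.7 and 49.5 in Z off mice against 113.9, 154.1 and 99.7 in Z on mice (log2 difference 1.10, adjusted p = 0.671). The Z off arrays were below those of M off and Z on and overlapped 1 of M on, whose lowest was 75.5, and the difference of the responses was 1.60 (adjusted p = 0.852). Oat, ornithine aminotransferase, had 896.4, 1108 and 1135.6 in Z off mice against 1618.7, 2310.1 and 1329.9 in Z on mice. These groups lay apart from each other (0.71, adjusted p = 0.694). The Z off arrays were the low ones, also below M off (1193.1 to 1567.8) and M on (1409.6 to 1850.8). The Z on arrays overlapped both M groups. Gldc of the glycine cleavage system differed by -0.44 between Z on and Z off. Car5a, the mitochondrial carbonic anhydrase that supplies bicarbonate to Cps1, was lower on all 6 Z arrays than on all 6 M arrays, with 443 ± 62.6 in Z off and 638 ± 30.9 in M off, and a line difference of -0.50 that was not called (SE 0.12, adjusted p = 0.265).

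Of 13 regulators of these genes, 11 were measured and 0 were called in any comparison. In Z on against Z off 9 read higher and 2 lower, beside 47% of all probe sets higher. In Z off against M off 1 read higher and 10 lower, beside 52.8% higher. Both comparisons use the Z off arrays, so these counts are not separate results. Foxo1, a transcription factor held back by insulin, had 176, 112.7 and 128.2 in Z off mice against 310.7, 232.4 and 238.3 in Z on mice (log2 difference 0.92, SE 0.21, adjusted p = 0.533). The Z off arrays were the low ones, under the 191.6 of the lowest M on array, and the difference of the responses was 1.23 (adjusted p = 0.637). Ppargc1a, a coactivator of fasting genes, was dim and read 30.6 ± 4.95 in Z off and 53.2 ± 8.1 in M off, with a line difference of -0.77 (adjusted p = 0.334). Cebpa, a factor that drives urea cycle genes, read 1514 ± 297 in Z on and 2218 ± 332 in M on, with no overlap (-0.56, adjusted p = 0.61).

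Of the 47 members, 12 had further probe sets, 15 in all, and these agreed in sign with the one used for 9 of 15 in Z on against Z off, 9 in M on against M off, 8 in Z on against M on, 4 in Z off against M off and 9 in the Z line against the M line. Csad, like Mccc1, had 1 probe set and no such check. Genes outside the members were not checked in this way either, among them Slc7a2, Foxo1 and Ppargc1a with 3, 4 and 5 probe sets.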

How the data were processed

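Probe set signals of 12 one-colour Affymetrix arrays were used as deposited. The values are intensities on a linear scale; the submitters' processing notes name RMA, but the deposited intensities span 0 to 37251.7, have equal trimmed means (150.07 to 150.08 with 2% removed from each end) and medians from 38.8 to 47.2, so they are not on RMA's log2 scale. RNA was purified with TRIZOL and RNeasy, per the labels' protocols. Control probe sets (64) were left out, 22626 were tested, and 1 value of 0 was set to 0.1 before log2. Names came from the platform annotation (20380 probe sets with 1 symbol, 691 with several, 1555 with none; 0 symbols changed in RefSeq).

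Group means were fitted in 1 model over all 12 arrays with limma 3.58.1 in R 4.3.3 (two-sided tests; tested on simulated data), and 7 contrasts were taken. Array number limits the precision. The members, lists, roles and tests were chosen with earlier results of these data known. A rule chose Cps1, Otc, Asl and Arg1, and the members of highest and lowest mean signal. Per comparison it added members with an unadjusted p under 0.05 and non-overlapping arrays, up to 4 per direction. Where fewer than 2 qualified in all, it took those of the smallest p. Up to 3 further genes per list were added. Their values are given by array, as group means, as a range or as a difference. Other members named, and the motifs, were chosen after values were seen. Alternatives were 2 normalizations, 16 or 50 added before log2, an intensity trend with robust variances, a filter on level, fewer groups in the fit, a replicate block, averaging a gene's probe sets, and omitting 1 array at a time.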

Additional observations from a re-analysis of the deposited data

Results flagged for a closer look

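An 18S RNA control, which no comparison of genes uses, read 914.2 or more on the Z on arrays and at most 767.5 on the arrays of the other groups, among them the silent controls. The beta-actin 3′ to 5′ ratio overlapped between Z on (2.44 to 5.16) and Z off (2.18 to 2.53), and Z off lay below M off (2.72 to 3.89). The Gapdh ratio of Z off (1.09 to 1.49) overlapped both Z on (1.23 to 1.92) and M off (1.48 to 1.54). Whether any of these controls bears on Nags or any other member was not tested.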

How the results depend on the processing

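Under 9 other settings and 12 omissions of 1 array, 0 members were called between Z on and Z off, between M on and M off, for the difference of the responses, and for on against off over both lines. The Mccc1 line difference over both states was called in every setting (log2 -1.38 to -1.14). Mccc1 became a call between Z on and M on (1 member called) with 16 or 50 added (-1.17 and -1.06), with an intensity trend (-1.23) and with only probe sets above the median level. Its call between Z off and M off was lost (0 members called) with only those groups in the fit (adjusted p = 0.264) and with the replicate block (adjusted p = 0.104). With 50 added, an intensity trend, or only the brighter probe sets, Csad became a call, 2 members in all, between Z off and M off (adjusted p = 0.042, 0.0325 and 0.0429) and between the lines over both states (0.0293, 0.0243 and 0.0308). Why these settings differ was not tested. Kynu between Z on and Z off changed sign with quantile normalization (0.0075) and median centring (0.0097), and Otc there with the mean of all its probe sets (0.10). Leaving out 1 array gave 0 to 0 members called between Z off and M off. It moved the members' median from 0.028 to 0.18 for the difference of the responses, and from -0.077 to 0.053 between Z on and M on. It gave differences between Z on and Z off from -0.032 to 0.27 for Asl, -0.19 to 0.024 for Bhmt and -0.34 to 0.29 for Kynu. Between M on and M off the ranges were -0.12 to 0.051 for Otc, -0.10 to 0.15 for Asl and -0.34 to 0.044 for Bhmt. Whether the replicate numbers pair the arrays was not settled. Of 18 pairs with the same number, 3 correlated above 0.1 (-0.08 to 0.16), and of 36 pairs with other numbers 3 did (-0.18 to 0.16). Of 12 arrays, 6 correlated best with their own number, and the array numbered 1 had the highest members' median in each group. Under the replicate block 1 member was called between the lines over both states. For comparisons of all 4 groups, the fit on fewer groups is the reported fit. Kynu lies under the median level and dropped out of that filter.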
